A study of Rattus norvegicus with 8 samples.

Results

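The expression of 10 genes that make, break down or use glutathione was followed in the kidney left in place after removal of its partner. The set was chosen by name, with earlier results of these data known. It holds Gclc, Gclm and Gss for synthesis and Ggct, Ggt1, Chac1 and Dpep1 for breakdown. Gsr, Gpx1 and Gpx3 stand for the use and recovery of glutathione against peroxides. A probe was matched to 9 of the 10 genes through its RefSeq accession, 11 probes among the 41012 gene probes of the array, and Dpep1 was not analysed here. The study compared 4 nephrectomized with 4 sham-operated male rats of the inbred strain F344/NSlc, aged 10 weeks, and total RNA of the right kidney of each rat was hybridised to its own 1-colour array. Sampling followed the operation by 2 days in both groups by the series text, but by 2 days in nephrectomized and 1 day in sham rats by the source labels. If the labels hold, group and sampling day cannot be told apart. Nothing in the labels says that RNA of several rats was pooled, and p-values measure the spread between these 8 samples.

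Glutathione is a tripeptide of glutamate, cysteine and glycine and the main soluble thiol of cells. Glutamate-cysteine ligase makes the first bond and sets the pace. Gclc encodes its catalytic subunit and Gclm its modifier subunit, and glutathione synthetase, from Gss, adds glycine. The kidney takes up glutathione from blood and filtrate and cleaves it at the brush border of the proximal tubule, where gamma-glutamyltransferase (Ggt1) removes the glutamyl group and dipeptidases such as Dpep1 split the rest. Inside the cell Chac1 cleaves glutathione directly, and Ggct, gamma-glutamylcyclotransferase, turns gamma-glutamyl amino acids into 5-oxoproline. Gpx1 in cells and Gpx3, which the proximal tubule secretes into plasma, reduce peroxides with glutathione, and glutathione reductase (Gsr) regenerates it.

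The sequences around the starts of 3 of these genes are shown because the data bear on both ligase subunits and on Ggct, which moved together across rats. Promoters of 9 of the 10 genes matched by symbol in RefSeq (build GRCr8), each with 250 bases before and 50 after the gene's start. The gene left out is Gsr. Gclc lies at chr8:87510226-87510525 on the + strand, Gclm at chr2:213031885-213032184 on the + strand and Ggct at chr4:85459497-85459796 on the - strand, each read 5′ to 3′ along its gene. Capitals mark a match to TGACNNNGC, the core of the antioxidant response element that the factor Nrf2 binds, searched on both strands.
Gclc: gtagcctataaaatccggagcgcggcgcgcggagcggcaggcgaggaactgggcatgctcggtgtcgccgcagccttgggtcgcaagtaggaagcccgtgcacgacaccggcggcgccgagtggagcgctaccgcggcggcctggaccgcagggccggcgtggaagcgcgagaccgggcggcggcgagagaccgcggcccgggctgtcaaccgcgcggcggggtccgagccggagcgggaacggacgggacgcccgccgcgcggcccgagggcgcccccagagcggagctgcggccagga
Gclm: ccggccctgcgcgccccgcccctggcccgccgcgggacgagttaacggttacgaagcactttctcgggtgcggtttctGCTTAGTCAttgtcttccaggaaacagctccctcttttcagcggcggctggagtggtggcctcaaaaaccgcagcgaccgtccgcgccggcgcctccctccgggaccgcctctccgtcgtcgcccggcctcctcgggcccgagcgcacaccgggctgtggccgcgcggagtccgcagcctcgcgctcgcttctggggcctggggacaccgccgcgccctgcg
Ggct: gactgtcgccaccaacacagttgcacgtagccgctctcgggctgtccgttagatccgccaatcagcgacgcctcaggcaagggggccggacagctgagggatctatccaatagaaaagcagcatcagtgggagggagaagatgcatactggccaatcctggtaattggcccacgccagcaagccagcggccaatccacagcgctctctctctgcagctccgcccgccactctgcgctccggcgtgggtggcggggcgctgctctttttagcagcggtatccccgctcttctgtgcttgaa
Only Gclm of the 9 promoters held the motif, as GCTTAGTCA on the reverse strand, starting 172 bases before the gene's start. Of all 33469 promoters of the same length, 12.1% held it. A second motif, TGATGNAA, the C/EBP-ATF response element read by ATF4, was found in Chac1 alone of the 9, against 3.98% of all promoters, and no promoter of the 9 held both. These matches describe letters in these windows. The GC content was 76.7% for Gclc, 72.0% for Gclm and 61.3% for Ggct, against a median of 51.7% over all promoters.

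All values below are log2 of the processed intensity minus the array's 75th percentile, so that they are relative to the other mRNA of the same sample, and levels of different probes are not compared. Across the 8 arrays, 54.8% to 65.5% of gene probes were well above background, the software's flag for a spot clearly brighter than its surroundings, and no probe was saturated. All 23 kidney markers that were tested, from podocyte to collecting duct, were well above background on all 8 arrays. Sham rat 1 stood apart on the second principal component (21.6% of the variance). The arrays lay on 2 slides of 4, each with 2 nephrectomized and 2 sham rats. The erythroid markers summed to 13.4 to 14.8 times the 75th percentile in nephrectomized and 13.1 to 29.1 in sham kidneys, with none called. Slc4a1, which is also on the collecting duct list, makes up most of this sum. Hbb, a globin gene, ran from 0.74 to 2.00 in nephrectomized and from 0.27 to 3.39 in sham rats on the log2 scale. No adrenal cortex marker was tested: the probes of Cyp11b1 and Cyp11b2, which make its steroid hormones, were well above background on 0 of 8 arrays, and that of Cyp11a1, which starts steroid synthesis, on 4 of 8.

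Of 8 members that passed the filter on dim probes and were tested, 1 fell after nephrectomy, Ggct, and 0 rose (limma with Benjamini-Hochberg adjustment over 19865 genes, threshold 0.05). Over all genes tested, 1.02% were called lower, 2.57% higher and 3.59% in either direction. At an unadjusted p under 0.05, 3 members were lower (Ggct, Ggt1 and Gclc) and 0 higher, against 7.6% and 10.1% of all genes. The log2 fold change was below 0 for 6 of 8 members, against 50.1% of all genes, and the members' median was -0.43, against -0.00041 over all genes. Because the members were chosen with earlier results of these data known, these contrasts are a description and not a test. Nephrectomized and sham values lay apart for 1 of 8 members, again Ggct. Over 19795 genes with complete values, 5.09% lay apart with nephrectomized rats lower and 7.59% with nephrectomized rats higher.

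**Figure D1:**
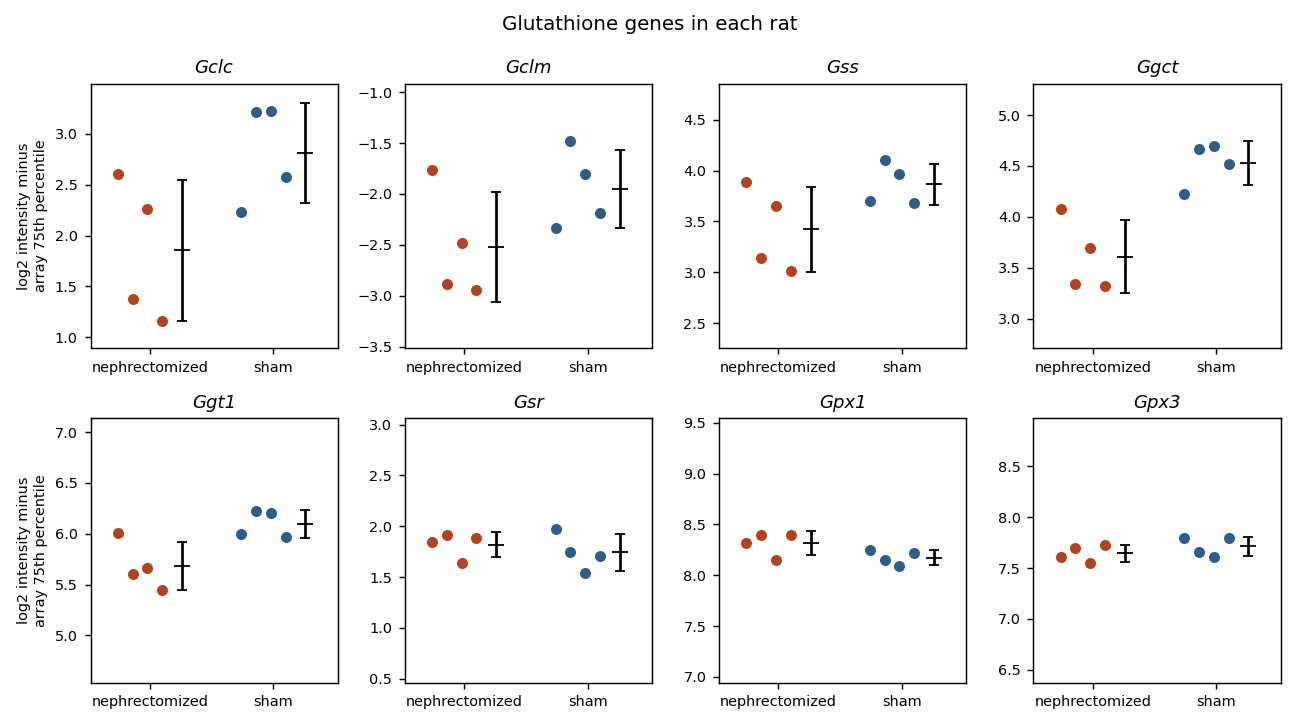
Values of the 8 tested members (log2 scale, relative to the 75th percentile of each array, each panel spanning the same height) with a point for each rat, nephrectomized left and sham right, and the mean ± SD (n = 4) beside them. Gclc, Gclm, Gss, Ggct and Ggt1 spread by 0.78 to 2.06 over the 8 rats, whereas Gsr, Gpx1 and Gpx3 spread by 0.25 to 0.43.

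Synthesis began with widely scattered values. Gclc, the catalytic subunit of the ligase, measured 2.61, 1.38, 2.27 and 1.16 in nephrectomized rats 1 to 4, against 2.23, 3.21, 3.23 and 2.58 in sham rats 1 to 4. Nephrectomized rats 2 and 4 lay below every sham rat, while rats 1 and 3 lay inside the sham range. The means were 1.85 ± 0.69 in nephrectomized and 2.81 ± 0.49 in sham rats (SD, n = 4 each). The log2 fold change was -0.96 (SE 0.36, 95% interval -1.78 to -0.14) and did not pass (adjusted p = 0.208 by limma). Both ligase subunits varied widely within groups, with an SD of 0.60 for Gclc and 0.47 for Gclm. The SD of Gclm exceeded that of 96.3% of all genes tested, and Gclc varied more still.

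Gclm, the modifier subunit, had a similar order of rats. It measured -1.77, -2.88, -2.48 and -2.95 in nephrectomized rats, against -2.33, -1.48, -1.81 and -2.19 in sham rats. The groups overlapped through nephrectomized rat 1, which was higher than every sham rat but rat 2. The log2 fold change was -0.57 (SE 0.28, 95% interval -1.22 to 0.08, adjusted p = 0.351 by limma). Gss, the synthetase of the final step, measured 3.89, 3.14, 3.65 and 3.01 in nephrectomized rats and 3.70, 4.10, 3.97 and 3.68 in sham rats. Its groups also overlapped through rat 1, and its log2 fold change of -0.44 (SE 0.20, 95% interval -0.90 to 0.02) did not pass (adjusted p = 0.304 by limma). The intervals of Gclm and Gss include no difference, and that of Gclc ends near it.

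Among the breakdown enzymes, Ggct measured 4.08, 3.34, 3.69 and 3.32 in nephrectomized rats, against 4.22, 4.67, 4.70 and 4.52 in sham rats. Every nephrectomized rat lay below every sham rat, with a gap of 0.14 between nephrectomized rat 1 and sham rat 1. Ggct mRNA was at 0.530 of the sham level (95% interval 0.397 to 0.707, n = 4 rats per group), a log2 fold change of -0.92 (SE 0.18, adjusted p = 0.0319 by limma). The difference was -0.73 on slide 1 and -1.10 on slide 2, with an adjusted p of 0.0478 by limma with slide as a block. Leaving out any 1 of rats 2, 3 and 4 of either group ended the call (adjusted p = 0.0626 to 0.104 by limma), and it was kept without sham rat 1 (0.0303) or nephrectomized rat 1 (0.0102). It was also lost without the filter on dim probes (0.122), with a replicate block (0.111) and within slide 1 (0.646) or slide 2 (0.106) alone, each with 4 rats.

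Ggt1, the transferase of the brush border, measured 6.01, 5.61, 5.67 and 5.44 in nephrectomized rats, against 5.995, 6.22, 6.21 and 5.97 in sham rats. Only nephrectomized rat 1 reached the sham range. Ggt1 stood at 0.749 of the sham level (95% interval 0.615 to 0.913), a log2 fold change of -0.42 (SE 0.13) that did not pass (adjusted p = 0.122 by limma). It passed without nephrectomized rat 1 (log2 fold change -0.53, adjusted p = 0.0358 by limma). Leaving out any other single rat did not make Ggt1 pass (adjusted p = 0.132 to 0.280 by limma). Chac1, the stress-induced cytosolic enzyme, was near background. Its brighter probe ranged from -5.01 to -4.16 in nephrectomized and from -4.97 to -4.23 in sham rats and was well above background in 2 of 4 rats of each group. Its other probe was above background on 0 of 8 arrays, so that Chac1 did not pass the filter. Tested without the filter, the brighter probe differed by 0.20 on the log2 scale and did not pass (adjusted p = 0.893 by limma).

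**Figure D2:**
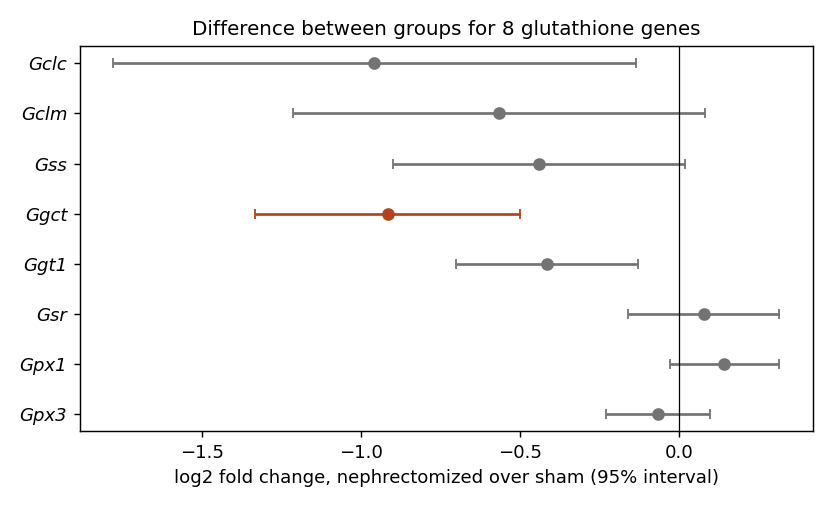
Log2 fold change, nephrectomized over sham, of the 8 tested members with its 95% interval from limma (n = 4 rats per group), in colour where the adjusted p was under 0.05. Ggct (-0.92) is the member past the threshold, Gclc (-0.96) has the widest interval and Gsr, Gpx1 and Gpx3 lie close to 0.

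The peroxidases and the reductase showed smaller differences. Gpx1, the abundant cytosolic peroxidase, ranged from 8.15 to 8.40 in nephrectomized and from 8.09 to 8.25 in sham rats. Its log2 fold change was 0.14 (SE 0.08, 95% interval -0.03 to 0.31, adjusted p = 0.378 by limma), and a second probe gave 0.12 (adjusted p = 0.404 with each probe tested on its own). Both probes overlapped between groups. Gpx3, the secreted peroxidase, ranged from 7.55 to 7.73 in nephrectomized and from 7.61 to 7.79 in sham rats, with a log2 fold change of -0.07 (95% interval -0.23 to 0.09). Gsr ranged from 1.64 to 1.92 in nephrectomized and from 1.54 to 1.98 in sham rats, with a log2 fold change of 0.08 (95% interval -0.16 to 0.31). The intervals of Gsr, Gpx1 and Gpx3 leave out any difference beyond 0.314 on the log2 scale.

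Synthesis and breakdown genes shared an order of rats that the comparison of groups does not show. Nephrectomized rat 4 was the lowest and nephrectomized rat 2 the second lowest of the 8 arrays in 5 members (Gclc, Gclm, Gss, Ggct and Ggt1), an order held by 4.24% of 19795 genes. In 4 of these 5, all but Gclm, sham rats 2 and 3 were also the 2 highest arrays, as in 2.00% of genes. Within groups, nephrectomized rat 1 was the highest nephrectomized rat for all 5, and sham rats 1 and 4 were the 2 lowest sham rats. The share of all genes with this order within groups was not counted, so it cannot be called particular to these members. Gsr, Gpx1 and Gpx3 did not have this order. The order was noticed after the values were seen and has no test.

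The profile most like that of Gclc belonged to Slc7a13, an amino acid transporter of the straight end of the rodent proximal tubule. After each gene was centred on its mean over the 8 arrays, Slc7a13 and Gclc differed by a root mean square of 0.056 (0.108 at most), the closest of 9304 named genes whose probe exceeded background on every array. The median gene differed by 0.714. Slc7a13 measured 4.25, 2.99, 3.77 and 2.72 in nephrectomized rats, against 3.87, 4.82, 4.93 and 4.24 in sham rats, and its log2 fold change of -1.03 did not pass (adjusted p = 0.182 by limma). Osgin1, an oxidative stress-induced growth inhibitor, was next at 0.093 and Slco1a1, an organic anion transporter, followed at 0.102. Their log2 fold changes were -1.002 and -1.04, and neither passed (adjusted p = 0.132 and 0.185 by limma).

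**Figure D3:**
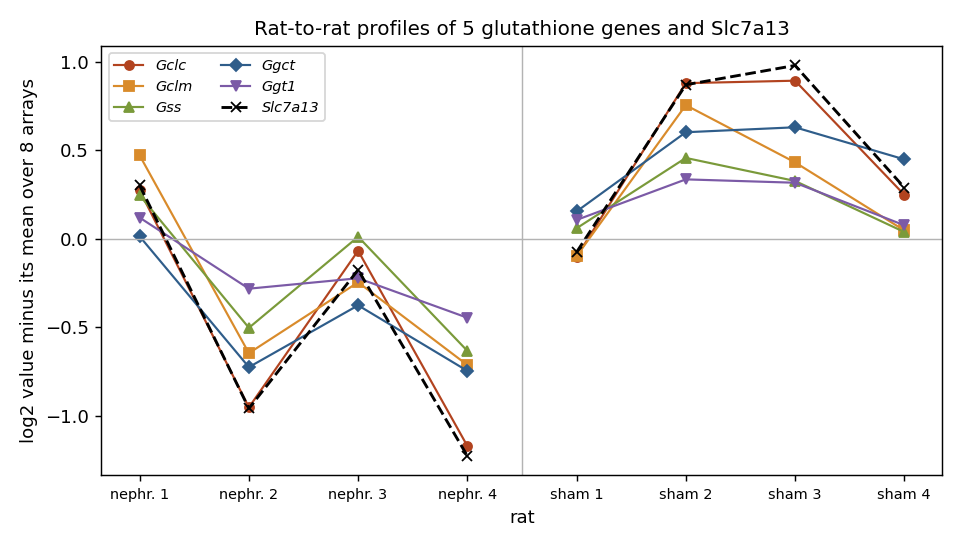
Log2 value of each gene minus its mean over the 8 arrays, by rat, with nephrectomized rats left and sham rats right. Lines join the points of a gene within a group and stand for no order of rats. Gclc and Slc7a13 (dashed) lie within 0.108 of each other on every array, and nephrectomized rats 2 and 4 are the lowest for all 6 genes.

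The other members had other neighbours. Among the profiles closest to Ggct were Hpgd, which inactivates prostaglandins, at 0.100 and the aldo-keto reductase Akr1c2 at 0.106, against 0.535 for the median gene. Neither Hpgd (log2 fold change -0.86, adjusted p = 0.0731 by limma) nor Akr1c2 (-0.85, adjusted p = 0.0716) passed. Gss was closest to Cth, cystathionine gamma-lyase, which makes cysteine, at 0.096, then to Cyp4a8 and Cyp2j4, both cytochromes P450, at 0.099 and 0.102. Gclm was closest to Cgref1 at 0.081, the asparaginase Aspg at 0.106 and Cyp2j4 at 0.129. Slc7a13 ranked 104 of 9304 for Ggct, 127 for Gclm and 5752 for Gss. This distance counts the size of the differences between rats as well as their order. Slc7a13 spanned 2.20 over the 8 arrays and Gss 1.09, so the rank for Gss does not speak to a shared order. These neighbours were ranked on the same 8 arrays, and likeness over 8 points is a description.

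Markers of the late proximal tubule moved in part with these genes. Of the 4 that were tested of 5 listed, 0 were called (limma, 1 at an unadjusted p under 0.05), and 3 had log2 fold changes below 0: Slc7a13 (-1.03), Acy3 (-0.23) and Slc17a3 (-0.21), with Slc5a1 at 0.14. Their summed level was 140.6 to 227 times the 75th percentile in nephrectomized and 186.6 to 236 in sham kidneys. Most of this sum is Acy3, at 6.91 to 7.58 in nephrectomized and 7.28 to 7.56 in sham rats on the log2 scale. The summed level of 6 markers of the early proximal tubule was 447 to 497 in nephrectomized and 477 to 503 in sham kidneys. Their part in the result was not tested. In whole kidney RNA, fewer cells of a type and less RNA per cell cannot be told apart.

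The lists of neighbouring pathways were named for their function and chosen with earlier results of these data known. Over all genes tested, 17.7% had an unadjusted p under 0.05 by limma, the share to set beside the counts of each list. For breakdown and recycling, 0 of 9 tested genes were called (2 at an unadjusted p under 0.05 by limma), 8 of 9 had log2 fold changes below 0 and the median was -0.08. Anpep, the aminopeptidase that splits the cysteinylglycine left by Ggt1, measured 4.53, 4.06, 4.56 and 3.97 in nephrectomized rats, against 4.76, 4.82, 4.75 and 4.69 in sham rats. Its groups did not overlap on this brightest probe, and its log2 fold change of -0.47 (SE 0.14) did not pass (adjusted p = 0.119 by limma). With the mean of its probes the log2 fold change of Anpep was smaller, at -0.296 (adjusted p = 0.141 by limma). Oplah, which returns 5-oxoproline to glutamate, had -0.24 (adjusted p = 0.207).

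In the list of cysteine and glutamate supply, which also holds Slc7a13, 0 of 13 tested genes were called by limma. Cdo1 (-0.61) and Csad (-0.59) on this list are enzymes that use cysteine, so its counts and median do not describe supply alone. An unadjusted p under 0.05 was reached by 7 of 13, all lower, with Cdo1 and Csad among them. Of all genes, 7.6% were lower at that level and 17.7% reached it in either direction. Slc1a4 (-0.86), also among the 7, was well above background in 4 sham but only 2 nephrectomized rats. It thus passed the filter through the sham group alone. The median log2 fold change was -0.34, with 10 of 13 below 0. Slc3a1, the heavy chain of the renal cystine transporter, had the smallest p (-0.47, SE 0.14, adjusted p = 0.115). Slc7a11, which imports cystine in many cells, had 1 probe, well above background on 0 of 8 arrays.

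Gpx2, a peroxidase known best from epithelia of the gut, rose. It measured -0.06, -0.16, -0.05 and -0.19 in nephrectomized rats, against -0.84, -0.70, -0.85 and -1.05 in sham rats. All 4 nephrectomized rats lay above all 4 sham rats, with a gap of 0.52. Gpx2 was 1.68-fold higher after nephrectomy (95% interval 1.47 to 1.91, log2 fold change 0.75, SE 0.08, adjusted p = 0.00233 by limma). The difference was 0.66 on slide 1 and 0.83 on slide 2, and the call was kept without any single rat (adjusted p = 0.00524 to 0.0106), but lost within slide 1 (0.236) and slide 2 (0.101) alone, each with 4 rats. It was the 1 called gene of the 4 other peroxidases tested of 6 listed. Gpx4, the lipid peroxide reductase, had 0.006, Gpx7 0.14 and Gpx8 0.17. The sign of Gpx4 turned under quantile normalization, normexp and other settings and that of Gpx8 without sham rat 4 (-0.008), and none of these 3 passed (adjusted p = 0.486 to 0.978).

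**Figure D4:**
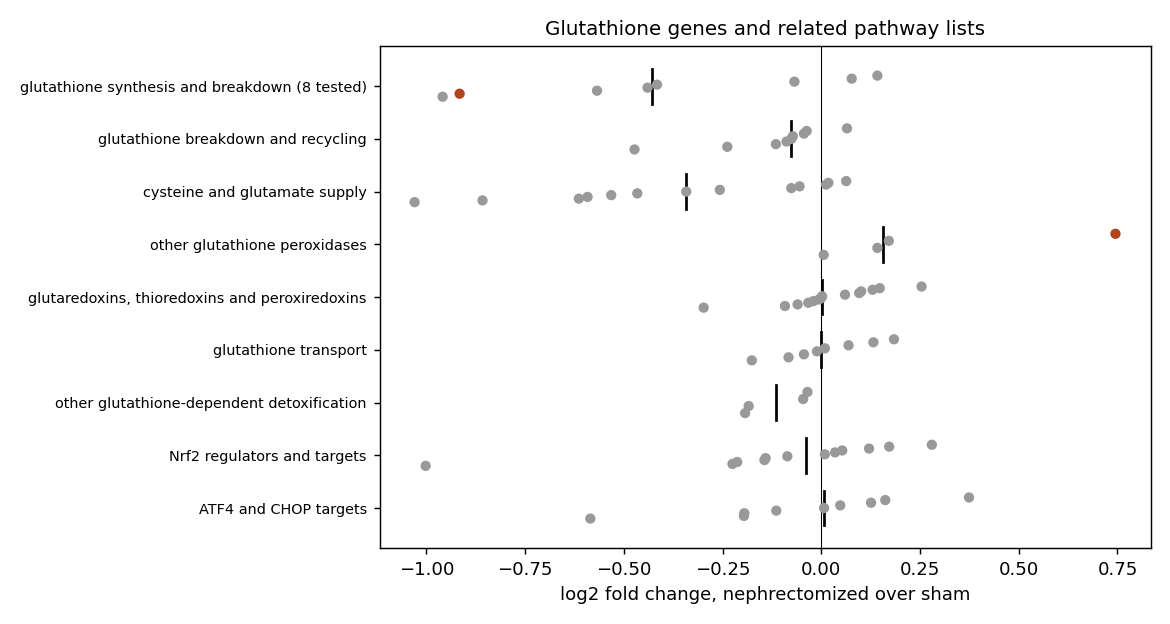
Log2 fold change, nephrectomized over sham, of each tested gene in the set described and in 8 lists of related genes, with list medians as black bars and genes past an adjusted p of 0.05 in colour. Ggct (-0.92) and Gpx2 (0.75) are the coloured points, and the medians of the other lists run from -0.34 to 0.16.

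The remaining 5 lists held no called gene. Of 14 glutaredoxins, thioredoxins and peroxiredoxins, 2 had an unadjusted p under 0.05 by limma. The median log2 fold change was 0.001, and Prdx6, a peroxidase that draws on glutathione, had the smallest p (-0.30, SE 0.08, adjusted p = 0.085). For glutathione transport, 8 genes were tested with 0 at that level, with a median of -0.001 and Abcc2, an export pump, at 0.18 (adjusted p = 0.468). For other glutathione-dependent detoxification, 4 genes were tested with 0 at that level, with a median of -0.12 and Hagh, a glyoxalase, at -0.19 (adjusted p = 0.366).

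For Nrf2 and its regulators and targets, 12 genes were tested with 4 at an unadjusted p under 0.05 by limma, and the median was -0.04. Of these 4, Tkt and Blvrb (0.17) were higher, and Osgin1 (-1.002) and Sqstm1 (-0.21) were lower. Tkt, the transketolase of the pentose phosphate pathway, had the smallest p (0.28, SE 0.07, adjusted p = 0.0578). Its nephrectomized rats (7.70 to 7.91) lay above its sham rats (7.47 to 7.58). For ATF4 and its targets, the pathway that induces Chac1, 9 genes were tested with 4 at that level, and the median was 0.01. The 4 were Atf3, which was higher, and Atf4, Ddit3 and Ddit4, which were lower. Ddit4 had the largest change of the list (-0.585, adjusted p = 0.233 by limma), and its groups overlapped. Atf3, an early stress factor, had the smallest p (0.37, SE 0.11, adjusted p = 0.12), and its nephrectomized rats lay above all sham rats, as did those of Shmt2, which makes glycine in mitochondria (0.16, adjusted p = 0.286). Atf4 itself (-0.20, adjusted p = 0.155) and Ddit3, which encodes CHOP (-0.19, adjusted p = 0.272), lay apart the other way, with nephrectomized rats below all sham rats.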

How the data were processed

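Total RNA of each kidney was purified on RNeasy Mini columns and carried the dye Cy3, per the labels' protocols. The authors deposited scanner files from Agilent Feature Extraction 10.5.1.1 (protocol GE1_105_Dec08, rat design 014879), and their processed signal is an intensity, background-subtracted and detrended within the array, per the file headers. A deposited table of log2 values from the authors matched the computation here after centring on each probe's median (r = 0.9999 across probes). Its column medians ran from -0.0169 to 0.0152, and the sources used here do not say how its 30448 rows were selected.

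Spots marked as outliers were removed, log2 intensities of a probe's spots averaged, and each array's 75th percentile over gene probes subtracted. A probe was retained if every array of 1 group or the other showed it well above background (23982 probes). The files hold no gene names: 18713 probes received a symbol through their RefSeq accession (GRCr8), and the brightest probe stood for each gene. Testing used limma 3.58.1 under R 4.3.3 (no covariates, two-sided), checked on simulated data. No 2 arrays held the same values (SD of log2 differences 0.531 to 0.778).

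The members and lists were chosen with earlier results of these data known. The genes named were all members and each list's called genes or its gene with the smallest p. Also named were the 3 closest profiles of each member spanning at least 1 on the log2 scale. Others (Oplah, Kdr, Gpx4, Gpx7, Gpx8, Acy3, Slc17a3, Slc5a1, Atf4, Ddit3, Ddit4, Shmt2, Cdo1, Csad, Slc1a4, Hbb, Blvrb, Sqstm1 and the undetected genes) were named after their values were seen. Some genes that this rule names are not reported here. Alternatives tried were normexp (offset 50, on the median spot intensity), quantile or median scaling, the deposited table, no or a stricter filter, other probe rules, an intensity trend, array weights, blocks, each slide alone and each rat left out.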

Additional observations from a re-analysis of the deposited data

Results flagged for a closer look

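Over the genes examined, 6 of 100 groups of 4 rats held a rat far from the others of its group by Dixon's test at the 95% level; chance alone marks about 1 in 20 groups. The brighter Chac1 probe was at -5.01 in nephrectomized rat 4, against -4.24 to -4.16 in the other nephrectomized rats, near background. Lrp2, the endocytic receptor megalin and a marker of the proximal tubule, was at 6.37 in nephrectomized rat 3, against 6.17 to 6.19 in the others. Ptprc, a marker of leukocytes, was at -2.32 in sham rat 1, against -2.05 to -2.01 in the others. Gpx7 was at -0.78 in nephrectomized rat 2, against -0.50 to -0.48 in the others, and Gpx8 at 0.31 in sham rat 4, against 0.978 to 1.099 in the others. Ddit3 was at 0.21 in nephrectomized rat 3, against 0.33 to 0.34 in the others.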

How the results depend on the processing

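Over 22 alternatives, 160 of 176 values of the 8 members kept their direction and their side of the threshold. For every member but Ggct, keeping its side meant staying uncalled. Ggct, the 1 called member, kept its call in 12 of 22 alternatives and lost it in 10. The median log2 fold change of the members stayed negative throughout (-0.56 to -0.32 when 1 rat was left out). The count of members lower was 0 without the filter on dim probes, with a replicate block and within slide 1 or slide 2 alone (0 and 4 at an unadjusted p under 0.05 by limma), and 0 to 2 when 1 rat was left out. With array weights 4 members were lower (Gclc, Ggct, Ggt1 and Gss) and 1 higher (Gpx1), and Gpx3 turned to 0.002; members higher stayed at 0 when 1 rat was left out.

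Over all genes, 511 were called higher and 203 lower. These counts were 244 and 38 without the filter, 1391 and 1129 with array weights, 243 and 53 with a replicate block, 0 and 0 within slide 1 (1632 at an unadjusted p under 0.05 by limma) and 137 and 4 within slide 2. They ran from 280 to 497 and from 57 to 223 when 1 rat was left out. The cause of these shifts was not tested, beyond the fewer arrays of a single slide. Same-numbered rats did not deviate together (r = -0.0176 to 0.103 across genes in 4 pairs), and 1 of 4 nephrectomized rats was closest to the sham rat of its own number. With the replicate block Ggct had an adjusted p of 0.111 by limma. Among markers, Slc12a3 (log2 fold change -0.03) turned to 0.073 with array weights and ranged from -0.121 to 0.090 when 1 rat was left out (0.023 without nephrectomized rat 3), and Slc4a1 (-0.16) turned to 0.022 and Slc5a1 (0.14) to -0.022 within slide 1. Gpx4 (0.006) turned to -0.0 under quantile normalization, -0.014 under normexp, -0.033 with array weights and -0.012 within slide 2, and ran from -0.039 to 0.037 when 1 rat was left out (-0.014 without sham rat 4, -0.039 without nephrectomized rat 1). Gpx8 (0.17) ran from -0.008 (without sham rat 4) to 0.254 when 1 rat was left out. Precision is limited by having 4 arrays in each group, and signal near background limits Chac1.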

Other observations

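The marker lists compare mRNA of a few markers of each cell type between groups by the same fit, and none held a called gene (limma, adjusted p). They do not measure the share of each cell type, and a difference in makeup can be missed. The lists of the distal convoluted tubule and of adipocytes had 1 tested gene each, and that of the adrenal cortex had 0. Lrp2 had the smallest p of the early proximal tubule list (log2 fold change -0.11, adjusted p = 0.427). The others were Slc12a1 for the thick ascending limb (-0.11, adjusted p = 0.637), Slc12a3 for the distal convoluted tubule (-0.03, adjusted p = 0.936) and Atp6v1g3 for the collecting duct (0.15, adjusted p = 0.514). Outside the tubule, Pecam1 of endothelium had -0.33 (adjusted p = 0.247), Ptprc of leukocytes -0.18 (adjusted p = 0.35), Slc4a1 of the erythroid list -0.16 (adjusted p = 0.598) and Adipoq of adipocytes -0.11 (adjusted p = 0.692). At an unadjusted p under 0.05, Slc7a13 and Pecam1 were lower and Kdr, an endothelial receptor, higher, and 0 genes of the other marker lists passed.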
